A study of Mus musculus with 12 samples.

Results

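The genes described here are the protein-coding genes of the cytosolic ribosome in BMDMs (bone marrow-derived macrophages) of HSS9 KO and WT mice. They were taken from the count table by name, as protein-coding genes of the annotation whose symbol is Rpl or Rps followed by a number, or Rpsa, Rplp0, Rplp1 or Rplp2, without the Rps6k kinases. This gave 92 of 48526 genes, of which 46 encode proteins of the large subunit and 31 proteins of the small subunit. The other members are 8 paralogs (Rpl3l, Rpl7l1, Rpl10l, Rpl22l1, Rpl36al, Rpl39l, Rps27l and Rps27rt), 6 genes with the symbol of a processed copy (Rpl10-ps3, Rpl36-ps4, Rpl36a-ps1, Rpl9-ps1, Rpl9-ps6 and Rps12-ps3) and Rps19bp1, which encodes a nucleolar protein that binds the Rps19 protein and is not part of the ribosome. HSS9 is an enhancer upstream of Tnf, and the KO mice were homozygous for its deletion. The 4 groups of 3 libraries were KO and WT, each as UT and LPS, where LPS is 6 hr of lipopolysaccharide and UT is the same time in PBS. All cells were grown from the bone marrow of young adult males in medium conditioned by L929 cells, and each library carries a batch number that all 4 groups share. The labels call the WT mice HSS9+/+ littermates and the methods describe bought C57BL/6 mice, so a genetic background shared by the genotypes is not assured. The deletion removes no gene of the count table, so the genotype labels could not be checked on a targeted transcript.

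A ribosome contains a single copy of nearly every ribosomal protein, so a cell makes these proteins together and in large amounts. Their mRNAs are short, abundant and long-lived, and most begin with a C followed by a run of pyrimidines, the 5′ TOP (terminal oligopyrimidine) motif, through which mTOR and the RNA-binding protein Larp1 control their translation. Counts of mRNA do not measure that step.

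RefSeq promoters (GRCm38.p6) were given for 66 of the 92 members. A C within 2 bases of the annotated start that is followed by at least 4 pyrimidines was present in 22 of these 66 members (33.3%), in 8 of 69 mitochondrial ribosomal protein genes (11.6%) and in 10.6% of all 27025 genes of the promoter table. Of the other motifs looked for on either strand from 250 bases before to 50 bases after the start, CCGGAAG, the core of the sites of ETS factors, was in 39.4% of members and 9.93% of all genes. CTTTCC, which can itself be part of a pyrimidine run, was in 54.5% and 29.3%, GGGCGG, the core of Sp1 sites, in 62.1% and 38.2%, and AAGATGG, the core of YY1 sites, in 15.2% and 7.28%. In the sequences below, capitals mark the pyrimidine run, counted from the qualifying C at or nearest the start. The sequences are from 15 bases before the start to 15 bases from the start on. They are the subunit genes with such a run and 1 annotated start that had the 3 highest and the 3 lowest log2 fold changes in KO UT against WT UT, described below, and the paralog Rpl39l, which has no such run.
Rplp2, chr7:141447636-141447665, plus strand: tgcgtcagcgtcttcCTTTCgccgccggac
Rps10, chr17:27635230-27635259, minus strand: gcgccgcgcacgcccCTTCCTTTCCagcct
Rpl38, chr11:114668565-114668594, plus strand: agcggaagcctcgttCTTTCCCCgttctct
Rpl13a, chr7:45128731-45128760, minus strand: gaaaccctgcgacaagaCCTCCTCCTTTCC
Rpl7a, chr2:26910792-26910821, plus strand: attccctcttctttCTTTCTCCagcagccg
Rpl15, chr14:18270972-18271001, minus strand: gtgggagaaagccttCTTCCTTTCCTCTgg
Rpl39l, chr16:10170213-10170242, plus strand: ctcccaggcctttccggatttccggtggtc

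Counted from the C at or nearest the start, the run has 5 bases in Rplp2, 10 in Rps10 and 8 in Rpl38, the 3 highest. It has 8 in Rpl7a, 13 in Rpl15 and at least 13 in Rpl13a, where it meets the end of the window, the 3 lowest. Pyrimidines before that C, which adjoin it in all but Rpl13a, are not in these lengths. The 20 subunit genes with the run and the 37 without it had median log2 fold changes of 0.68 and 0.63 in that comparison.

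Per kilobase of mRNA, 74 of the 77 subunit genes reached at least 100 CPM (counts scaled to library size by TMM and to the usual fixed total) in WT UT, and their order was nearly the same in every group. On that scale the median over the 77 subunit genes was 488 CPM in WT UT, 760 CPM in KO UT, 565 CPM in WT LPS and 514 CPM in KO LPS. The highest levels per kilobase in WT UT were those of Rps29 (1571 ± 72.6 CPM per kb, mean ± SD, n = 3) and Rps27 (1557 ± 29.8), which differed by less than their SDs. Rpl37a (1304 ± 42.5) and Rpl26 (1304 ± 70.2) came next and likewise did not differ beyond their SDs. Rpl24 and Rpl13a were the only subunit genes under 10 CPM per kb, in each of the 4 groups. The length used was that of the shortest annotated transcript with the longest coding sequence, which may not be the one expressed. It was 3706 nt for Rps20, 1613 nt for Rps24 and 1109 nt for Rps16, with coding sequences of 357, 399 and 438 nt. Levels per kilobase of such genes, and the count above 100 CPM, are therefore uncertain. Across the 77 genes, Spearman's rho of the levels was 0.99 between WT UT and KO UT and 0.97 between WT UT and WT LPS, given as a description because the genes share their libraries.

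The share of all counts that fell on the 92 genes was highest in the KO UT libraries. In replicates 1, 2 and 3 it was 4.191%, 3.996% and 4.104% in WT UT, 5.73%, 5.74% and 5.45% in KO UT, 2.53%, 3.08% and 3.51% in WT LPS and 2.88%, 2.91% and 2.75% in KO LPS. The KO UT libraries lay above all the others, and the WT LPS libraries were more spread than those of the other groups, with KO LPS inside their range. Library totals ranged from 26154533 to 36423921 counts, so counting error is small against these differences.

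The counts on small structured RNAs, a list of 3861 genes of the biotypes snRNA, snoRNA, scaRNA, misc_RNA and rRNA with 7SK and similar transcripts, also had their highest mean share in KO UT. Their share was 3.25%, 3.06% and 3.00% in WT UT, 7.98%, 7.70% and 6.64% in KO UT, 4.04%, 5.36% and 6.89% in WT LPS and 3.39%, 3.43% and 3.23% in KO LPS. Within WT LPS the 3 libraries had the same order in both shares, while across groups the order depended on the scaling. Unscaled, WT LPS had less than WT UT on the ribosomal protein genes and more on small structured RNAs. After TMM scaling, as used in every test below, the members summed to 31739 CPM in WT UT, 34812 CPM in KO LPS, 37347 CPM in WT LPS and 48545 CPM in KO UT (means, n = 3), which is the group order of the small structured RNA share (means of 3.10%, 3.35%, 5.43% and 7.44%). The macrophage markers were above 1 CPM in each group for 8 of 8 genes. They summed to 28894 to 29968 CPM in WT UT, 33294 to 34401 CPM in KO UT, 27929 to 29471 CPM in WT LPS and 30223 to 32088 CPM in KO LPS. Markers of other cells were low, at up to 38.0 CPM for 7 stromal genes, 79.6 CPM for 8 neutrophil genes (Ly6g at 0 in every library), 1.79 CPM for 5 B cell genes, 3.44 CPM for 6 T cell genes and 0.0751 CPM for 6 erythroid genes. The neutrophil list, with 3 of 8 genes above 1 CPM in each group, summed to 20.4 to 22.0 CPM in WT UT, 42.6 to 48.1 CPM in KO UT, 50.5 to 79.6 CPM in WT LPS and 67.3 to 76.7 CPM in KO LPS. The stromal list summed to 8.21 to 8.33, 11.6 to 12.5, 25.1 to 26.6 and 37.4 to 38.0 CPM in the same order. The part of other cell types in the results below was not tested. These are bulk libraries, in which fewer cells of a type and less RNA per cell cannot be told apart.

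**Figure D1:**
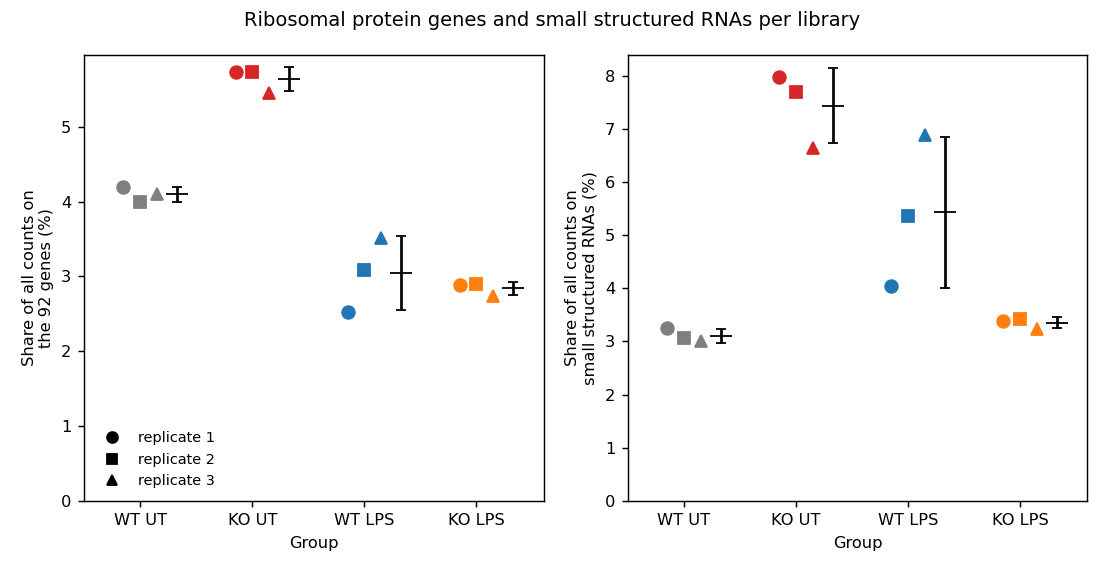
Share of all counts per library (%), on the 92 ribosomal protein genes (left) and on small structured RNAs (right), for 4 groups of 3 libraries, with symbols for the replicate and black bars for the mean ± SD. The KO UT mean is highest in both panels, although on the right WT LPS replicate 3 lies above KO UT replicate 3. The WT LPS libraries are spread in the same order in both panels.

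Without stimulation, nearly the whole set was higher in KO than in WT macrophages, by a similar and moderate amount. Of the 88 members that passed the filter on low counts, 83 were higher at an adjusted p below 0.05 (edgeR's quasi-likelihood test, Benjamini-Hochberg over all 15523 genes tested) where 14.1% of all genes tested were higher and 9.69% lower. The number of members lower was 0, also at an unadjusted p below 0.05 and with DESeq2. The median log2 fold change was 0.64, a 1.56-fold rise, against 0.0014 over all genes. In 85 of the 88, the 3 KO UT libraries lay above the 3 WT UT libraries, against 21.6% of all genes. Only 1 member, Rpl39l, passed the criteria of the study (an absolute log2 fold change above 1 as well), against 1.82% of all genes in either direction. Within batches 1, 2 and 3 the medians were 0.64, 0.74 and 0.56.

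Both subunits took part. All 31 genes of the small subunit and 43 of the 46 of the large subunit were higher, with medians of 0.65 and 0.64. Rps29, a small zinc-binding protein of the small subunit (chr12:69157722-69159186, minus strand), stood at 639.7, 583 and 616 CPM in WT UT and 1348, 1192 and 1036 CPM in KO UT. The groups did not overlap, and the rise was the largest of the subunit genes (log2 fold change ± SE 0.96 ± 0.14, adjusted p = 2.0e-05, as in all brackets below). Rpl36 followed with 172, 147 and 169 CPM in WT UT and 327, 293 and 257 CPM in KO UT (0.85 ± 0.13, adjusted p = 5.1e-05). Rps16 rose by 0.84 ± 0.11 and Rps28 by 0.82 ± 0.12 on the log2 scale (SE).

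The stalk proteins Rplp0, Rplp1 and Rplp2, which bind the elongation factors, all rose. Rplp0, the scaffold of the stalk and a common reference gene in RT-qPCR, went from 934, 911 and 951 CPM to 1325, 1252 and 1245 CPM (0.45 ± 0.054, adjusted p = 3.5e-06). Rplp1 rose by 0.65 ± 0.10 and Rplp2 by 0.76 ± 0.13. Rpl5 and Rpl11, which form a particle with 5S rRNA that can bind Mdm2, rose by 0.33 ± 0.051 and 0.57 ± 0.075. Rps6, the substrate of the S6 kinases, went from 269.9, 260.1 and 262 CPM to 379, 372 and 369 CPM (0.50 ± 0.061, adjusted p = 4.5e-06). Rpsa, also known as a laminin receptor, rose by 0.47 ± 0.067. The 4 X-linked members (Rpl10, Rpl36a, Rpl39 and Rps4x) all rose, among them Rpl10 by 0.50 ± 0.065 and Rps4x by 0.54 ± 0.056. All 20 genes listed for Diamond-Blackfan anemia, an inherited failure of red cell production, rose too, with Rps19, the first of them to be identified, at 0.59 ± 0.096. The median was 0.65 for the stalk, 0.45 for the 5S particle and 0.67 for the anemia genes, against 0.64 for all members tested.

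The 5 members that did not pass the test were Rpl4, Rpl13a, Rpl24 and the copies Rpl10-ps3 and Rpl36a-ps1. Rpl4 had 481, 445 and 467 CPM in WT UT and 536, 501 and 503 CPM in KO UT (0.15 ± 0.056, adjusted p = 0.062), with no overlap. Its adjusted p was 0.036 with protein-coding genes alone, 0.047 with a mean of 1 CPM or more and 0.0083 with only the groups compared. Rpl3, the other long subunit gene, rose by 0.27 ± 0.051.

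**Figure D2:**
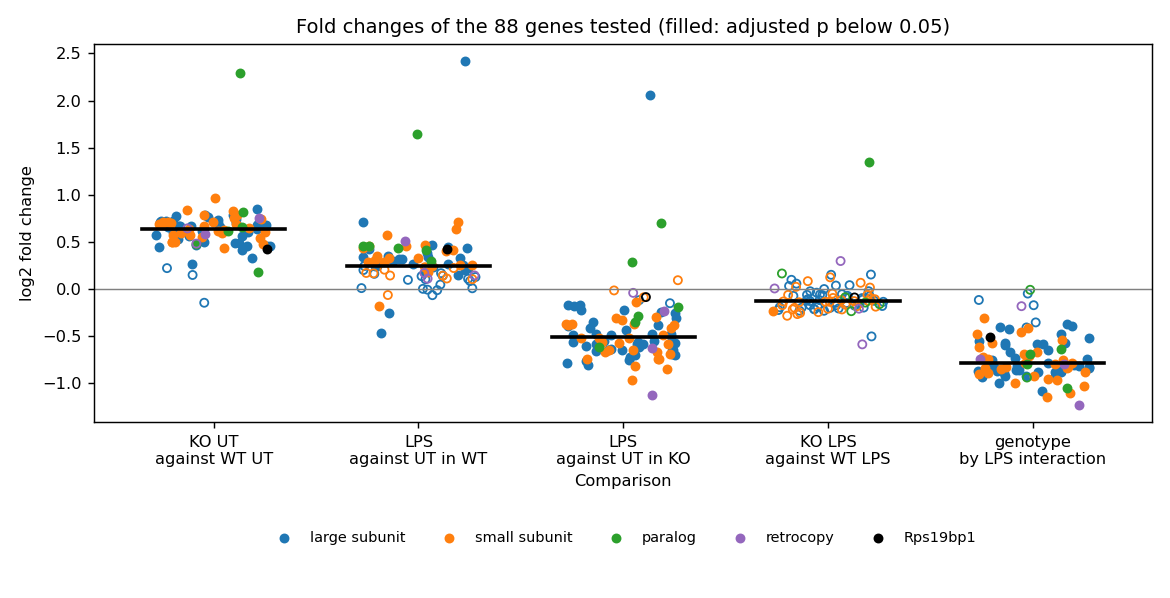
Log2 fold change of the 88 members tested (points, coloured by role) in the 5 comparisons, filled where the adjusted p was below 0.05, with the median as a black line. The medians are 0.64, 0.25, -0.51, -0.13 and -0.79 from left to right, and the points far from them are mostly Rpl39l and Rpl24.

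The size of the rise followed the length of the coding sequence. In the 25 subunit genes with the shortest coding sequence (138 to 405 nt) the median log2 fold change in KO UT against WT UT was 0.72, in the middle 27 it was 0.67, and in the 25 longest (582 to 1257 nt) it was 0.49. Spearman's rho between coding length and log2 fold change was -0.81 over the 77 genes, a description across genes that share their libraries. Rps29 has 168 nt of coding sequence, while Rpl3 and Rpl4 have 1209 and 1257 nt.

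Genes outside the set showed the same order by length. Over all other protein-coding genes tested, the median log2 fold change of KO UT against WT UT was 0.46 for 234 genes with up to 300 nt of coding sequence and 0.30 for 1334 genes with 300 to 600 nt. It was 0.12 for 1712 genes with 600 to 900 nt, 0.04 for 1803 genes with 900 to 1200 nt and -0.07 for 7060 longer genes. In the same classes the members had medians of 0.78 (11 genes), 0.67 (52), 0.48 (21), 0.51 (2) and 0.21 (2), so they lay above other genes of their class in each. When trends of fold change with GC content and length over all genes were taken out in each library, together with the replicate block, 79 members were higher, with a median of 0.42.

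**Figure D3:**
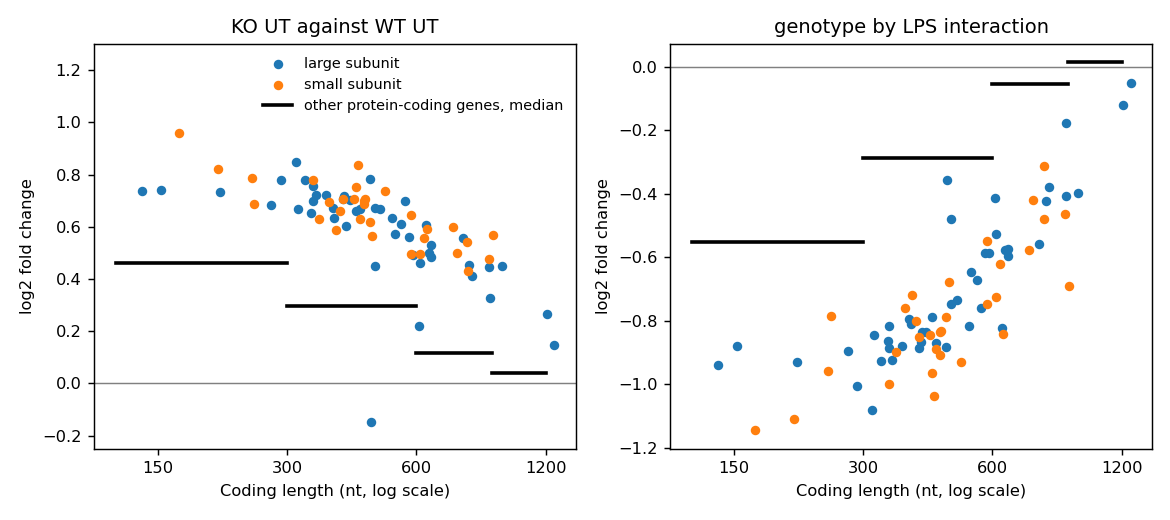
Log2 fold change against coding length (nt, log axis) of the 77 subunit genes in KO UT against WT UT (left) and in the genotype by LPS interaction (right), with the median of all other protein-coding genes in 4 length classes as black lines. Short genes moved most in both panels, and nearly all subunit genes lie beyond the line of their class.

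With the share of small structured RNAs of each library as a covariate, 4 members were higher and 5 lower, with a median of -0.082. The shares of the KO UT libraries (6.64% to 7.98%) and the WT UT libraries (3.00% to 3.25%) do not overlap. The genotype and whatever sets that share cannot be told apart in the UT comparison.

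After TMM scaling, LPS raised more members than it lowered in WT macrophages, and the WT LPS libraries did not behave alike. The direction depended on that scaling, since the unscaled share of all counts on the members was lower in every WT LPS library (2.53% to 3.51%) than in every WT UT library (3.996% to 4.191%), with TMM factors of 0.811 to 0.818 and 1.289 to 1.294. Of the 88 members, 53 were higher and 3 lower after LPS, where 38.0% of all genes tested were higher and 35.3% lower. The median log2 fold change was 0.25 against 0.047 over all genes. Within batches 1, 2 and 3 the medians were -0.08, 0.30 and 0.48. Without WT LPS replicate 3 the number higher was 34, and without WT LPS replicate 1 it was 75. With upper-quartile scaling it was 15, with 8 lower.

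Apart from Rpl24 and Rpl39l, described below, Rpl27, Rps9 and Rps20 were among the members with the largest rises. Rps9, a protein of the small subunit, went from 813, 786 and 784 CPM in WT UT to 1051, 1288 and 1369 CPM in WT LPS (0.64 ± 0.070, adjusted p = 4.4e-08). Every WT LPS library lay above every WT UT library. Rpl27 rose by 0.71 ± 0.087 and Rps20 by 0.57 ± 0.10. Rps20 was at 0.044 (adjusted p = 0.59) with the small structured RNA share as a covariate. The 3 members that fell were Rpl3, Rpl4 and Rpsa, at -0.47 ± 0.051, -0.26 ± 0.056 and -0.18 ± 0.067. For Rpsa the value was -0.11 (adjusted p = 0.16) with protein-coding genes alone, -0.10 (0.13) with the replicate block and GC and length offsets and -0.099 (0.094) without WT LPS replicate 1. Rpl3, which reaches close to the peptidyl transferase centre, dropped from 591, 574 and 599 CPM to 408, 454 and 412 CPM, with no overlap.

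The spread within WT LPS was shared by nearly all members. The median coefficient of variation over the 77 subunit genes was 18.6% in WT LPS, against 3.33% in WT UT, 5.55% in KO UT and 3.83% in KO LPS. Relative to the mean of the group, the shortest subunit genes lay at -0.36 (log2) in replicate 1 and 0.35 in replicate 3, and the longest at -0.16 and 0.08. Rps29 showed it most, with 557, 825 and 1049.6 CPM in the 3 WT LPS libraries. Small structured RNAs took a share in these libraries of 4.04%, 5.36% and 6.89%. With that share as a covariate, 10 members were higher and 38 lower, with a median of -0.14.

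In KO macrophages LPS lowered most members. Of the 88, 78 were lower and 3 higher, where 37.7% of all genes tested were lower and 35.1% higher, and the median log2 fold change was -0.51 against -0.055 over all genes. Within batches the medians were -0.51, -0.55 and -0.44. In 80 members the 3 KO LPS libraries lay below the 3 KO UT libraries, against 39.4% of all genes. Rps28, which sits at the mRNA exit of the small subunit, went from 574, 539.6 and 476 CPM to 275, 279 and 257 CPM (-0.97 ± 0.12, adjusted p = 2.2e-07). Rps15 fell by 0.86 ± 0.11, Rps21 by 0.82 ± 0.12 and Rpl28 by 0.79 ± 0.10 on the log2 scale (SE). The 3 that rose were Rpl24, Rpl39l and Rpl7l1. Rps9 and Rpl27, which rose in WT, did not pass the test in KO. This comparison and that of KO UT with WT UT share the KO UT libraries. With the small structured RNA share as a covariate, 26 members were higher and 4 lower.

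After LPS, almost no member differed between the genotypes. Of the 88, 1 was higher (Rpl39l) and 1 lower in KO LPS than in WT LPS, where 7.78% of all genes tested were higher and 6.54% lower. The median log2 fold change was -0.13, with quartiles of -0.20 and -0.06. With the replicate block 0 were lower. Rplp0 had 869, 983 and 954 CPM in WT LPS and 980.1, 1014 and 920.0 CPM in KO LPS (0.054 ± 0.054, adjusted p = 0.55), with overlapping groups.

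This comparison rested on single libraries. Within batches 1, 2 and 3 the medians were 0.19, -0.11 and -0.39, so the direction differed between batches. Without WT LPS replicate 1, 63 members were lower in KO LPS and 2 higher. Without WT LPS replicate 2, WT LPS replicate 3 or KO LPS replicate 3, 0 were lower, and without WT LPS replicate 3 the median was 0.02. With the small structured RNA share as a covariate, 47 members were higher and 0 lower, with a median of 0.21.

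The response to LPS differed between the genotypes for 80 of 88 members, all in the same direction. The genotype by LPS interaction, the log2 effect of LPS in KO minus that in WT, had a median of -0.79 over the members and -0.0067 over all genes, and 80 members were lower and 0 higher at an adjusted p below 0.05, where 9.50% of all genes tested were lower and 7.32% higher. None was higher at an unadjusted p below 0.05. DESeq2 gave 78 lower and 0 higher. Of the 80, 8 also had a log2 value below -1, against 1.64% of all genes with a value below -1. The lowest with a mean of at least 5 CPM were Rps29 (-1.15 ± 0.19, adjusted p = 2.8e-04), Rps28 (-1.11 ± 0.17, adjusted p = 1.4e-04), Rpl36 (-1.08 ± 0.19, adjusted p = 3.6e-04), Rps27rt (-1.05 ± 0.17, adjusted p = 2.8e-04) and Rps16 (-1.04 ± 0.16, adjusted p = 1.6e-04).

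Within batches the medians of the interaction were -0.46, -0.87 and -0.95. Of the 80 members, 31 were the whole small subunit and 41 belonged to the large subunit. The 8 members that did not pass were Rpl3, Rpl4, Rpl5, Rpl7l1, Rpl13a, Rpl24, Rpl39l and Rpl10-ps3. By coding length the medians were -0.89, -0.83 and -0.53 from the shortest to the longest subunit genes, and other protein-coding genes had -0.55 up to 300 nt, -0.29 from 300 to 600 nt and 0.09 over 1200 nt. With GC and length offsets and the replicate block, 71 members were lower, with a median of -0.50. With the small structured RNA share as a covariate, 0 were lower and 9 higher, with a median of 0.29. This share was 3.00% to 3.25% in WT UT and 3.23% to 3.43% in KO LPS, but 6.64% to 7.98% in KO UT and 4.04% to 6.89% in WT LPS, so the interaction and this share cannot be told apart by group.

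**Figure D4:**
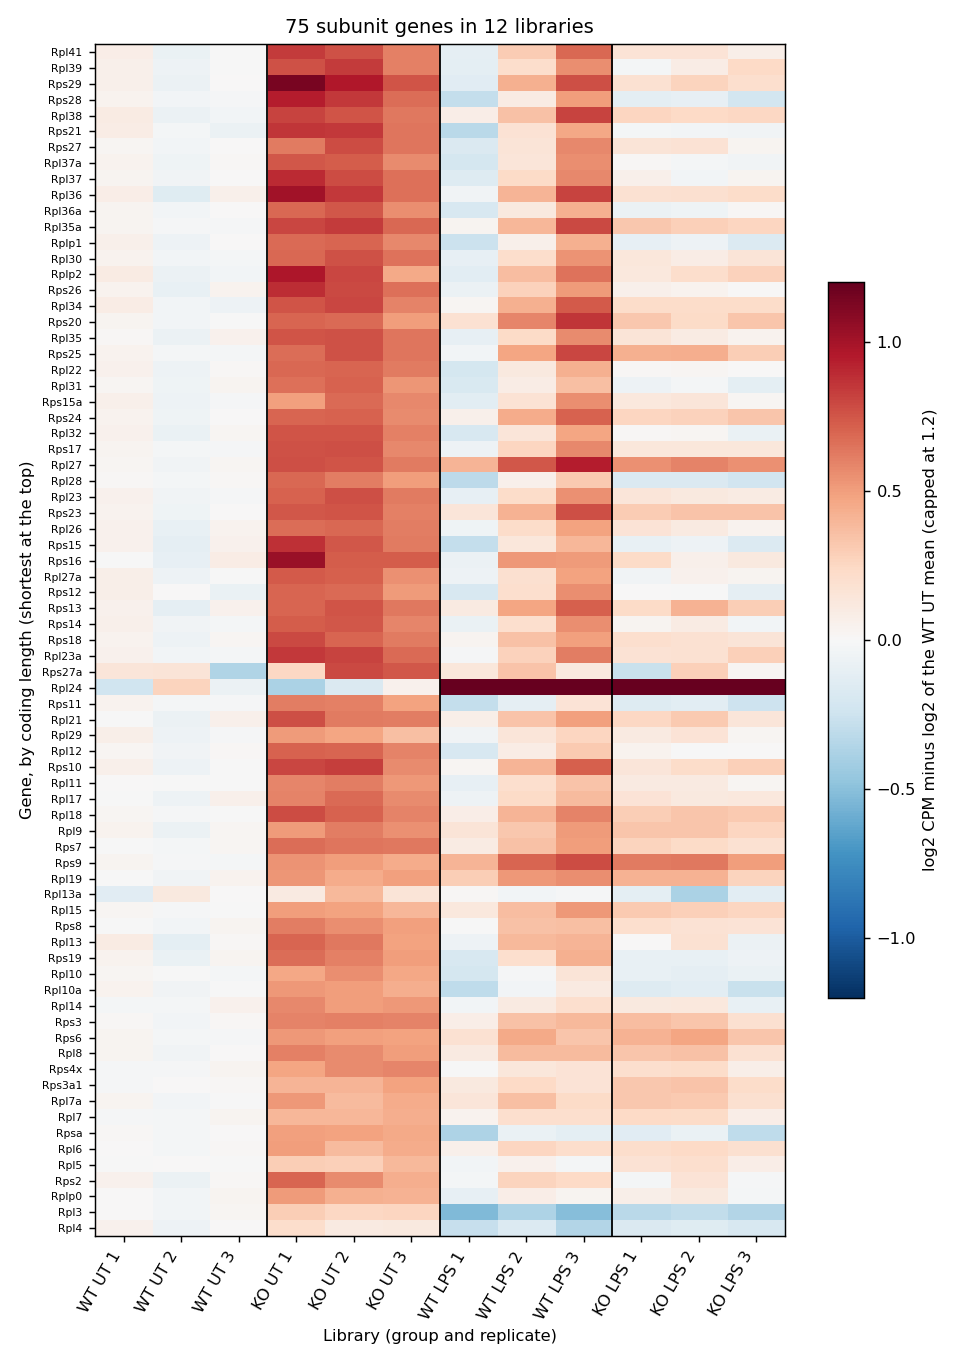
Log2 CPM of 75 subunit genes (rows, shortest coding sequence at the top) in the 12 libraries (columns), relative to the WT UT mean and capped at 1.2. The 3 KO UT columns are red for nearly every gene, WT LPS replicate 1 is near 0 and replicate 3 is red, and Rpl24 alone is beyond the cap in all LPS libraries.

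The paralogs followed the subunit genes with 2 exceptions. Rpl22l1, Rpl36al and Rps27l, which are expressed in many tissues, rose in KO UT by 0.48 ± 0.071, 0.66 ± 0.092 and 0.61 ± 0.095, and Rps27rt, a processed copy of Rps27, rose by 0.81 ± 0.12. Reads of Rps27rt and Rps27 may not be told apart, so its values are uncertain. Rps19bp1 rose by 0.42 ± 0.11, but with the replicate block and GC and length offsets its value was 0.10 (adjusted p = 0.51) and without WT UT replicate 2 it was 0.30 (0.075).

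Rpl7l1, a paralog of Rpl7, was the first exception. It stood at 63.8, 60.1 and 61.6 CPM in WT UT, 71.2, 69.4 and 68.7 CPM in KO UT, 81.4, 77.1 and 68.6 CPM in WT LPS and 84.5, 87.0 and 82.9 CPM in KO LPS. It rose with LPS in both genotypes (0.29 ± 0.060 in WT and 0.28 ± 0.060 in KO), and its interaction did not pass the test. With upper-quartile scaling the values were 0.11 in WT (adjusted p = 0.081) and 0.097 in KO (0.11), and with the small structured RNA share as a covariate 0.047 in KO (0.78). Rpl7l1 was also called higher in KO UT than in WT UT. That call was lost with RLE scaling (adjusted p = 0.22), with DESeq2 (0.23) and without a filter on low counts (0.087). It was also lost with the replicate block and GC and length offsets (0.11) and without WT UT replicate 2 (0.14).

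Rpl39l, a paralog of Rpl39 best known from the testis (chr16:10170226-10174911, plus strand), was the second. It had 10, 9 and 7 counts in WT UT, 37, 36 and 30 in KO UT, 17, 10 and 16 in WT LPS and 40, 47 and 38 in KO LPS. Every KO library lay above every WT library of the same treatment. It was the only member higher in KO under both treatments (2.29 ± 0.37, adjusted p = 8.5e-05 in UT and 1.35 ± 0.34, adjusted p = 0.011 after LPS). LPS raised it in WT (1.65 ± 0.41, adjusted p = 0.0011), while in KO its value was 0.70 ± 0.31, adjusted p = 0.048. The call in KO was lost with the replicate block (adjusted p = 0.061), with the block and GC and length offsets (0.095), without a filter on low counts (0.11), with upper-quartile scaling (0.14) and without KO UT replicate 3 (0.16). With the small structured RNA share as a covariate, the adjusted p was 0.11 for LPS in WT and 0.21 in KO, and for KO against WT 0.47 in UT and 0.056 after LPS. Without WT LPS replicate 2 the adjusted p for KO LPS against WT LPS was 0.054. These are few counts at 0.149 to 1.76 CPM, and reads that fit Rpl39 as well may have been shared or dropped. Rpl39 itself had 249, 229 and 237 CPM in WT UT and 405, 428 and 363 CPM in KO UT.

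Of the members not tested, Rpl10l and Rpl36-ps4 had 0 counts in all 12 libraries, Rpl3l had 1 to 16 counts and Rpl9-ps1 had 0 to 8. Rpl3l, a paralog of Rpl3 of heart and skeletal muscle, was thus near the floor of 3 counts.

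Rpl24 and Rpl13a were counted far below the other subunit genes, and their values are uncertain. Rpl24 (chr16:55966275-55971435, plus strand) had 30, 45 and 37 counts in WT UT, 22, 25 and 34 in KO UT, 115, 103 and 94 in WT LPS and 96, 79 and 75 in KO LPS. It was the member with the largest LPS response (2.42 ± 0.21, adjusted p = 1.0e-09 in WT and 2.06 ± 0.22, adjusted p = 3.6e-08 in KO), and the LPS libraries did not overlap the UT libraries in either genotype. The annotation places Gm28037 on the same strand over Rpl24 and Gm45713 on the same strand over Rpl13a. Gm28037 and Gm45713 had 0 counts in all 12 libraries. Reads that lie on both genes of such a pair may have been left out of the counts, and how they were treated is not given in the sources used here. Rpl13a, which as a protein takes part in the GAIT complex of activated macrophages, had 268, 338 and 325 counts in WT UT and 257, 306 and 302 in KO UT (0.22 ± 0.11, adjusted p = 0.18). In all, 33 of the 92 members overlap a gene on the same strand, in all but 4 of them only snoRNAs or other small RNAs, and 23 overlap a gene on the other strand. The 4 are Rpl24, Rpl13a, Rpl13 (with Gm20388) and Rpl19 (with Gm11629). Rpl13 had 10748 to 23514 counts per library and Rpl19 had 8191 to 14617. Whether such an overlap lowered the counts of Rpl24 and Rpl13a was not tested.

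**Figure D5:**
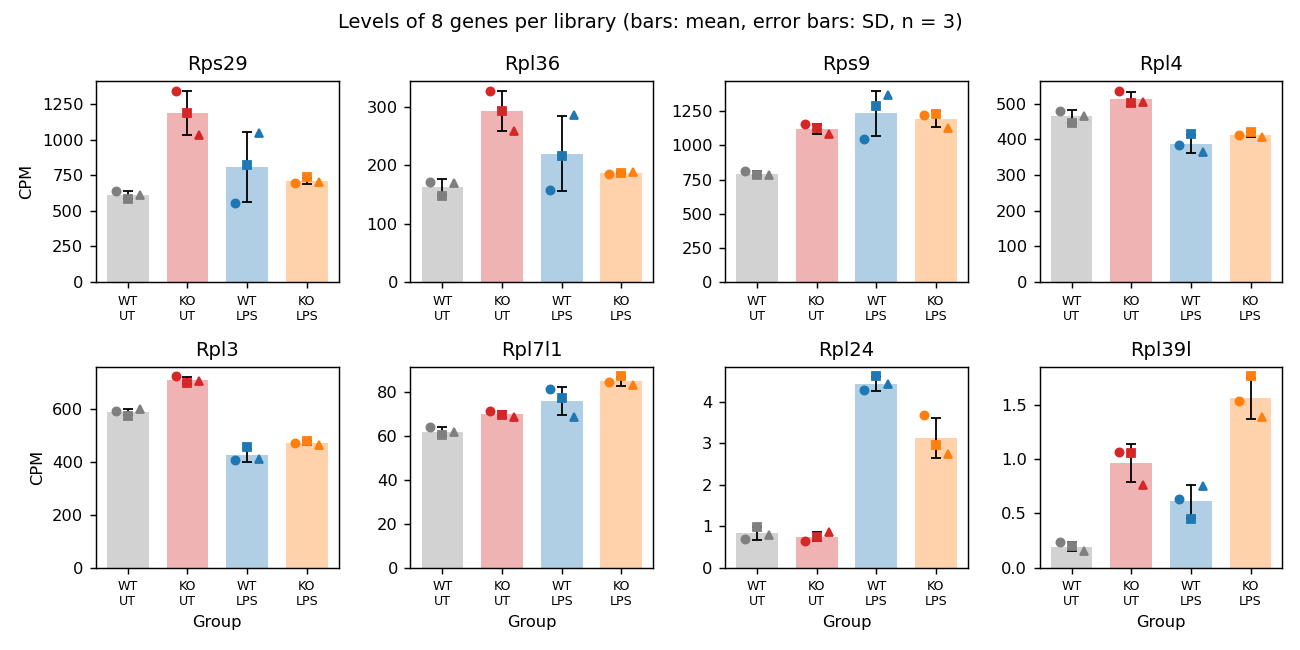
CPM of 8 members per library (points, symbols for replicates 1 to 3 as circle, square and triangle), with bars for the mean and error bars for the SD of 4 groups of 3. Rps29 and Rpl36 are highest in KO UT, Rps9 is lowest in WT UT, Rpl3 is low after LPS, Rpl24 is up only after LPS, and Rpl39l is higher in KO than in WT in both treatments.

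Genes of ribosomal proteins with other names rose in KO UT too. Fau, whose product contains the ribosomal protein eS30, rose by 0.68 ± 0.090 and Rack1, a scaffold on the small subunit, by 0.39 ± 0.056.

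The large and the small subunit kept their proportion within a narrow range. The summed CPM of the large subunit genes divided by that of the small subunit genes was 1.296 ± 0.015 in WT UT, 1.258 ± 0.010 in KO UT, 1.195 ± 0.018 in WT LPS and 1.208 ± 0.015 in KO LPS (SD, n = 3). All 6 LPS libraries lay below all 6 UT libraries, while the summed CPM of all members ranged from 30885 to 49690.

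The other genes of protein synthesis did not all move together in KO UT against WT UT. Of 77 mitochondrial ribosomal protein genes tested, 57 were higher and 1 lower, with a median log2 fold change of 0.39. Mrps21 (0.77 ± 0.11) and Mrpl34 (0.76 ± 0.12) rose most. With the small structured RNA share as a covariate, 1 was higher. The 21 translation factors listed for 5′ TOP mRNAs had 8 higher and 3 lower, with a median of 0.10. Eif3k rose by 0.56 ± 0.075 and Eef1d by 0.48 ± 0.072, whereas Pabpc1 fell by 0.35 ± 0.08 on the log2 scale (SE). The elongation factor Eef2 stood at -0.16 ± 0.056, adjusted p = 0.039, which was 0.059 with the replicate block and 0.12 without KO UT replicate 3, and Eef1a1 stood at 0.11 ± 0.049 (adjusted p = 0.12). Eef1a1 did pass with only the groups compared (0.11, adjusted p = 0.0026) and with the small structured RNA share as a covariate (0.39, adjusted p = 0.0013). Of 21 other initiation factors 4 were higher and 3 lower, of 61 ribosome biogenesis factors 12 and 3, of 14 RNA polymerase I genes 3 were higher, and of 24 regulators 3 were higher and 6 lower, against 14.1% higher and 9.69% lower over all genes. Among the biogenesis factors Nop10 (0.86 ± 0.099) and Nhp2 (0.64 ± 0.087), small proteins of the H/ACA snoRNPs, rose most. Under that covariate Nop10, Nhp2, Eif3k and Eef1d did not pass, at 0.026, 0.036, 0.12 and 0.064 (adjusted p = 0.96, 0.95, 0.74 and 0.87). Eif4ebp1, an inhibitor of cap-dependent translation that mTOR controls, rose by 0.48 ± 0.082, and Myc, which drives ribosome production, stood at 0.23 ± 0.17 (adjusted p = 0.36). Rheb, the activator of mTORC1, rose by 0.34 ± 0.057, whereas Larp1, the repressor of 5′ TOP mRNAs, was at -0.30 ± 0.068, adjusted p = 0.0023, Trp53 at -0.40 ± 0.097, adjusted p = 0.0041 and Sesn2, an inhibitor of mTORC1, at -0.35 ± 0.090, adjusted p = 0.0069. Larp1 and Sesn2 did not pass with the covariate, at -0.031 and -0.58 (adjusted p = 0.94 and 0.24), and Trp53 was then at -0.92 (0.019).

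LPS changed genes of the same lists in both directions, where LPS raised 38.0% of all genes tested in WT and lowered 35.3%, and in KO macrophages raised 35.1% and lowered 37.7%. Larp1 rose by 2.00 ± 0.069 in WT and 2.26 ± 0.070 in KO. Rrp1b, a biogenesis factor, fell by 2.38 ± 0.11 and 2.23 ± 0.11 on the log2 scale (SE), and Polr1b, a core subunit of RNA polymerase I, by 1.45 ± 0.11 and 1.31 ± 0.10. Of the 61 biogenesis factors, LPS raised 15 and lowered 30 in WT, and raised 14 and lowered 22 in KO. Of the 21 initiation factors outside the 5′ TOP list, it raised 15 and lowered 2 in WT, and raised 16 and lowered 1 in KO. Of the 77 mitochondrial ribosomal protein genes, it raised 30 and lowered 16 in WT, raised 17 and lowered 38 in KO, and the interaction was lower in 40 of them, against 9.50% of all genes.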

How the data were processed

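RNA of 12 BMDM libraries was sequenced from 4 groups of 3 (KO and WT, each UT and LPS), with a stranded total RNA kit. The authors deposited 1 table of read counts per gene, made with HISAT2 2.1.0, SAMtools 1.17 and featureCounts 2.0.0 after FastQC 0.11.9 on GRCm38, as the submitters' processing notes and the methods give them. Which annotation release was counted, whether strand was used and how reads with several matches were treated are not given in the sources used here, so values of near-identical copies and overlapping genes are uncertain. Of the 48526 genes, 48144 were matched to GENCODE M21 by identifier. Depletion and size selection of the RNA can shift the counts of short transcripts, and their part was not tested.

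Genes were filtered with filterByExpr (at least 10 counts, in total at least 15), which kept 15523 genes and 99.96% of the counts. Counts were scaled by TMM and fitted over all 12 libraries with edgeR 4.0.16 (R 4.3.3, glmQLFit and glmQLFTest), with an adjusted p below 0.05 (Benjamini-Hochberg over all genes tested) as the call. The study's own criteria add an absolute log2 fold change above 1. The SE of a log2 fold change is its size divided by the square root of the quasi-likelihood F. A prior count of 2 entered the log CPM used for deviations and for the GC and length offsets. CPM values and levels per kilobase were computed from the same scaled counts. DESeq2 1.42.0, other scalings, filters, covariates, the replicate block and leaving out each library were alternatives. In simulated counts of the KO LPS against WT LPS comparison over 15123 genes, 69% of genes changed by a log2 value of 0.5 and 100% of those changed by 1.5 were recovered.

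Library totals of 26154533 to 36423921 counts gave a biological coefficient of variation of 0.0712. The labels give each replicate number as a batch number shared by the 4 groups, and libraries were paired by this label alone. The deviations of the 18 same-numbered pairs correlated by -0.0631 to 0.0373 over all genes, none above 0.1. Over the members tested these correlations were -0.66 to 0.58, so the counts did not bear the pairing out. The closest libraries of a group differed by a chi-square of 3.81 per degree of freedom, above sampling noise. No source says that the libraries of a group came from separate mice, so p-values measure the spread between these libraries.

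The members, the lists of other genes and the markers were chosen with earlier results of these data known. Genes were named by role (stalk, 5S particle, X-linked, paralogs and others), or as the 5 largest increases or decreases of a comparison among members called with a mean of at least 5 CPM. From each other list the 2 largest were named, with Larp1, Myc, Eif4ebp1, Eef1a1, Eef2 and Polr1b in any case. Rpl3, Rpl4, Rpl24, Rpl10-ps3 and Rpl36a-ps1 were named because they did not follow the others, and the start sequences by their fold change, after their values were seen. Some genes that these rules name are not reported here. Promoter sequences are from RefSeq (GRCm38.p6).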

Additional observations from a re-analysis of the deposited data

Results flagged for a closer look

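The effect of LPS on the ribosomal protein genes differed between KO and WT by the test of the interaction itself. The interaction was lower for 80 of the 88 members tested, against 9.50% of all genes. Among named members the log2 values were -1.15 for Rps29, -1.11 for Rps28, -1.08 for Rpl36, -1.05 for Rps27rt and -1.04 for Rps16. Small structured RNAs took 3.00% to 3.25% in WT UT, 6.64% to 7.98% in KO UT, 4.04% to 6.89% in WT LPS and 3.23% to 3.43% in KO LPS. With that share as a covariate the same 5 values were 0.87, 0.60, 0.79, 0.45 and 0.19. Groups of 3 libraries were too small to look for single outlying values.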

How the results depend on the processing

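With 3 libraries a group, the comparison of KO LPS with WT LPS was set by single libraries. The median over the members changed sign in all 5 comparisons with 1 covariate. Counts stayed within 1.5 times of those reported when the 10 most-counted genes were removed, when protein-coding genes alone were fitted, or when small structured RNAs were removed before scaling (chosen after seeing the data), although single calls changed: for LPS in WT the number higher was 55, 65 and 57. Causes were not tested. Counts under 50 per library limit Rpl39l and Rpl24 in UT.

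With the small structured RNA share as a covariate, the numbers higher and lower were 4 and 5 in KO UT against WT UT (median -0.082), 47 and 0 in KO LPS against WT LPS (0.21), 10 and 38 for LPS in WT (-0.14), 26 and 4 for LPS in KO (0.14) and 9 and 0 for the interaction (0.29). In KO UT against WT UT the log2 values were then -0.37 for Rps29, -0.39 for Rpl36, -0.31 for Rps28, -0.19 for Rps27rt, -0.26 for Rplp1, -0.51 for Rplp2, -0.021 for Rpl11, -0.13 for Rpl36al, -0.18 for Rps27l, -0.086 for Rps19bp1 and -0.24 for Rps19. Outside the members they were -0.11 for Fau, -0.035 for Eif4ebp1, -0.20 for Mrps21, -0.25 for Mrpl34, 0.33 for Pabpc1 and 0.084 for Eef2. Named genes that kept a positive value but not the call were at 0.013 for Rps16, 0.24 for Rpl3, 0.24 for Rplp0, 0.29 for Rps6, 0.13 for Rpsa, 0.042 for Rpl10, 0.064 for Rpl22l1 and 0.16 for Rack1. For LPS in KO, values that were negative without the covariate became 0.10 for Rps28, 0.054 for Rps15, 0.22 for Rps21 and 0.032 for Rpl28. For the interaction, negative values became 0.87, 0.60, 0.79, 0.45, 0.19 and 0.24 for Rps29, Rps28, Rpl36, Rps27rt, Rps16 and Rpl39l.

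In KO LPS against WT LPS the number higher was 3 with RLE scaling, 4 with DESeq2 and 0 where a mean of 1 CPM or more was asked of each gene. Without a filter on low counts it was 3, with 15 lower. Fitting only the groups compared left 0 lower there and 33 higher for LPS in WT. Upper-quartile scaling gave 15 higher and 8 lower for LPS in WT, 1 higher for LPS in KO and medians of 0.066 and -0.69.

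With the replicate block, 0 members were lower in KO LPS against WT LPS, and 83 members were higher in KO UT and 78 lower in the interaction. With the block and GC and length offsets, 3 were higher in KO LPS against WT LPS, 6 higher for LPS in KO with a median of -0.33, and the medians were 0.42 in KO UT against WT UT and -0.50 in the interaction. Rpl4 was then at -0.0066 in KO UT, while 3 other alternatives called it higher, as given above.

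Leaving out 1 library at a time, the number higher in KO LPS against WT LPS was 1 to 2, the number lower 0 to 63 and the median -0.26 to 0.021. For LPS in WT the number higher was 34 to 75 and the number lower 2 to 5. Rpl24 in KO UT against WT UT ranged from -0.27 to 0.0023. The number higher in KO UT stayed at 81 to 84, the number lower for LPS in KO at 74 to 80 and that of the interaction at 77 to 81.

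As a share of the counts on protein-coding genes, members took 4.53% in WT UT, 6.51% in KO UT and 3.11% in KO LPS. Without the 10 most-counted genes in the denominator the shares were 4.71%, 6.72%, 3.54% and 3.24% in the UT libraries of WT and KO and the LPS libraries of WT and KO, and without small structured RNAs 4.23% in WT UT, 6.09% in KO UT and 2.94% in KO LPS.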
